A study of Mus musculus with 3 samples.

Results

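The strongest sharp open sites of mouse embryonic stem cells were taken from a list of potential FAIRE peaks as the intervals on chromosomes 1 to 19 with a score from 0.045 to below 0.2 and a width from 200 to below 3000 bp. The rule selected 3341 of the 348759 intervals in the list, or 0.969% of the 344785 autosomal ones. FAIRE-seq was carried out on wild type stem cells of the strain background 129Sv-C57Bl/6, which were cultured without feeder cells. The 3 samples were an input library of genomic DNA, FAIRE of cells given DMSO for 16 h, and FAIRE of cells given 500 nM ICRF-193, a catalytic inhibitor of topoisomerase II, for 16 h. Each FAIRE title names replicates 1 and 2 together, so each treatment was 1 sample. No interval of the list is tied to a sample, so no value here separates DMSO from ICRF-193 and the read depth behind each score is unknown. Positions are in the mouse build mm9, and genes were not assigned to them because no annotation of that build was used here.

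FAIRE (formaldehyde-assisted isolation of regulatory elements) separates crosslinked, sheared chromatin by phenol extraction and recovers the DNA that carries few bound nucleosomes. In embryonic stem cells such DNA is known to include the promoters of active genes, many of them CpG islands, and enhancers bound by pluripotency factors, and enhancers often occur in groups. Topoisomerase II relieves torsional strain and untangles DNA by passing 1 duplex through another. F-Seq, which the name of the list mentions, turns mapped reads into a smoothed density and reports stretches above a cutoff, so that an isolated narrow stack of reads and a broad accessible element can both appear as 1 interval.

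The sites were selected on score and width, and both are given as a description without a test. Most sites lay close to the lower limit. The median score was 0.0516, with quartiles of 0.0478 and 0.0590, and 95% of the sites scored at or below 0.0864. The lowest score on the autosomes was 0.0129, and the median score of the sites was 4.01 times that value. In score, 2574 sites (77.0%) were below 0.06, 651 (19.5%) from 0.06 to below 0.1 and 116 (3.47%) from 0.1 to below 0.2. The sites covered 2.37 Mb in all, 5.99% of the bases covered by autosomal intervals and 0.0981% of the autosomal span.

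The word sharp applied to most sites, but not in comparison with weaker intervals. The median width was 576 bp, with quartiles of 458 and 810 bp, and 506 sites (15.1%) were at least 1000 bp wide. A width of 2000 bp or more was reached by 75 sites (2.24%). Intervals of the same width range with scores from 0.035 to below 0.045 were narrower, with a median of 440 bp, and those from 0.015 to below 0.025 had a median of 264 bp. The word strongest likewise holds only below the upper limit, since 142 autosomal intervals scored 0.2 or more.

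The limits of the rule cut a continuous range at the lower end and few intervals at the upper ends. Just inside the lower score limit were an interval on chromosome 8 at 109487008 to 109487939 (score 0.0450032) and one at 26623658 to 26624285 (score 0.0450047). Just outside it were intervals on chromosome 10 at 38944298 to 38944776 (score 0.0449998) and on chromosome 12 at 109417518 to 109418131 (score 0.0449991). At the upper score limit the last site inside scored 0.1995 and the first interval outside, on chromosome 3 at 148715378 to 148716145, scored 0.2038. The widest site measured 2978 bp and the narrowest interval beyond the width limit measured 3050 bp, on chromosome 17 at 15157742 to 15160791. No autosomal interval with a score of at least 0.045 was narrower than 244 bp, so the lower width limit removed none of them. In all 222 intervals with that score were left out, 126 for their score alone, 80 for their width alone and 16 for both.

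Of the 5 highest-scoring sites, 3 had no other interval within 5 kb and 4 were narrower than the median site. The first was on chromosome 4 at 90393060 to 90393563, 504 bp wide with a score of 0.1995, and the nearest interval of the list lay 124 kb away. The second, also on chromosome 4 at 99047947 to 99048477 (531 bp, score 0.1977), was 22.9 kb from its nearest interval. The third, on chromosome 13 at 97960176 to 97960847 (672 bp, score 0.1977), had 4 other intervals within 5 kb, and the fourth, on chromosome 19 at 23431675 to 23432227 (553 bp, score 0.1974), had 1. The fifth, on chromosome 12 at 104130962 to 104131495 (534 bp, score 0.1971), was again alone, with its nearest interval at 6.72 kb.

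Across the 116 sites with a score of 0.1 or more, 39 (33.6%, 95% exact binomial interval 25.1 to 43.0%) had no other interval within 5 kb. The intervals around shares here cover counting error only, and the sites are not replicates. Of the 2574 sites below 0.06, 147 (5.71%, 4.85 to 6.68%) were alone, and of the 651 from 0.06 to below 0.1, 57 (8.76%, 6.70 to 11.2%) were. The 39 lone sites of 0.1 or more came from 17 of the 19 autosomes. Their widths ran from 440 to 907 bp with a median of 503 bp and quartiles of 485.5 and 562.5 bp. The other 77 sites of 0.1 or more had a median width of 902 bp, in a range of 408 to 2558 bp, and a median of 4 smaller intervals within 5 kb. The bounds of 0.06 and 0.1 were set after the values were seen. Without the 19 sites of 0.1 or more that lay within 500 kb of a chromosome's outermost intervals or of a gap of 1 Mb or more in the list, 37 of 97 (38.1%) were alone.

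**Figure D1:**
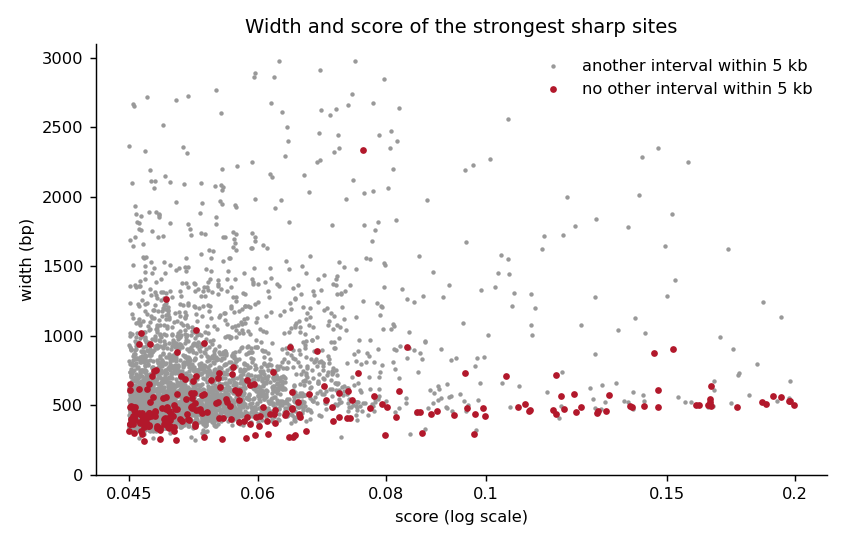
Width in bp (y axis) against score on a log scale (x axis) for the 3341 sites, with 1 point per site. Red points are the 243 sites with no other interval within 5 kb, which above a score of 0.1 lie mostly near their median width of 503 bp, while grey points spread up to 2978 bp.

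At equal width the lone share was higher for scores of 0.1 or more among narrow intervals, and not among those of at least 1200 bp. Among intervals from 400 to below 500 bp wide, 17 of 26 sites with a score of 0.1 or more (65.4%, 44.3 to 82.8%) were alone. The share was 24.3% (16.7 to 33.4%) for the 111 sites of that width from 0.06 to below 0.1, 7.65% (5.73 to 9.96%) for the 654 from 0.045 to below 0.06, and 7.68% (6.40 to 9.12%) for the 1537 intervals just below the rule, from 0.035 to below 0.045. From 500 to below 600 bp 16 of 32 sites of 0.1 or more were alone, against 6.61%, 3.90% and 6.12% in the same 3 lower classes. At 600 to below 800 bp 4 of 16 sites of 0.1 or more were alone, and at 800 to below 1200 bp 2 of 14, so these strata rest on few sites. At 1200 to below 3000 bp 0 of 28 sites of 0.1 or more were alone (0 to 12.3%), against 0.893% of the sites from 0.06 to below 0.1 and 0.510% of those from 0.045 to below 0.06. Beyond the upper limit of the rule, 67 of the 126 intervals of 0.2 or more (53.2%) had no other interval within 5 kb.

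**Figure D2:**
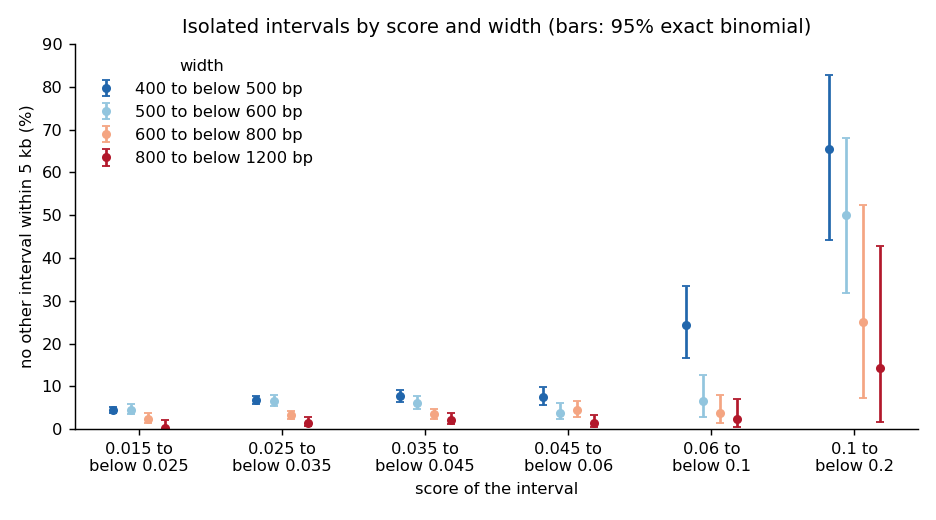
Percent of intervals with no other interval within 5 kb (y axis) by score class (x axis) and width (colours), where points are shares and bars are 95% exact binomial intervals. At 400 to below 500 bp the share was 7.65% at scores from 0.045 to below 0.06 and 65.4% at 0.1 or more.

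A typical site was surrounded by smaller intervals. Smaller was taken as narrower than the site, and an interval counted when its nearest edge lay within 5 kb of the edge of the site. The median was 7 smaller intervals, with quartiles of 3 and 12 and a maximum of 47. Of the 29624 neighbours counted, 96.2% were narrower than their site and 98.7% had a lower score. No smaller neighbour was listed for 255 sites (7.63%), and 310 sites (9.28%) had 20 or more. For lower-scoring intervals of the same width range the median was 5 from 0.015 to below 0.025. It was 4 from 0.025 to below 0.035 and 5 from 0.035 to below 0.045. In these classes 9.97%, 14.2% and 8.82% had no other interval of any width within 5 kb, against 7.27% of the sites. These classes were narrower than the sites, and at equal width the order differed. At 400 to below 500 bp the median was 8 smaller intervals from 0.015 to below 0.025, against 5 for sites from 0.045 to below 0.06. At 1200 to below 3000 bp it was 19 against 16. At 400 to below 500 bp 4.45% of that lowest class were alone, against 7.65% of those sites. Neighbours often abutted the site, since the nearest interval lay within 20 bp of 999 sites (29.9%) and within 500 bp of 2344 (70.2%). The median gap to the nearest interval was 191 bp for the sites and 166, 361 and 248 bp for the same lower classes. The number of smaller neighbours depended on how finely the list divides the signal. When intervals within 500 bp of each other were joined before the rule was applied, the median was 2 instead of 7 and 19.6% of the sites had no smaller neighbour. That share was 14.8% within 2 kb and 4.34% within 10 kb.

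Both flanks held nearly equal numbers of neighbours. The mean number of neighbours was 4.50 on the side of lower coordinates and 4.37 on the other. Neighbours stood on both sides of 2338 sites (70.0%) and on 1 side of 760 (22.7%). Wider sites had more smaller neighbours (Spearman's rho = 0.38 over 3341 sites), and the cause was not tested. By definition more intervals count as smaller for a wide site, but neighbours of any width rose as well. For sites from 0.045 to below 0.06 their median was 5 at 400 to below 500 bp and 16 at 1200 to below 3000 bp. Over all sites, score and the number of smaller neighbours were hardly related (rho = -0.03), but widths were mixed. In each width class from 400 bp up the median was lower for sites of 0.1 or more than for those below 0.06. At 400 to below 500 bp it was 0 against 5. At 1200 to below 3000 bp it was 9.5 against 16. These correlations are descriptions over sites of 1 list that share its reads and smoothing.

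Flanking intervals were most frequent in the first 1 kb and declined more slowly beyond it. Counted by midpoint over both sides, there were 1.65 intervals per site in the first 500 bp from the edge, 1.21 in the next 500 bp, 0.769 from 2000 to 2500 bp, and 0.563 from 9500 to 10000 bp. The first bin was thus 2.93 times the last. Sites of 0.1 or more had fewer flanking intervals, with 0.802 in the first 500 bp, 0.560 in the next and 0.414 in the last bin, a ratio of 1.94. Intervals scoring from 0.035 to below 0.045 had 1.48 in the first bin and 0.491 in the last, a ratio of 3.02, so a crowded flank was not peculiar to the strongest sites. Against that class the sites had a higher median number of smaller neighbours on 15 of 19 autosomes and the same median on 4. For neighbours of any width the median was higher on 12, equal on 6 and lower on 1. The sites were wider, however, and at widths from 400 to below 500 bp the median was 5 for sites from 0.045 to below 0.06 and 6 for the class just below.

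**Figure D3:**
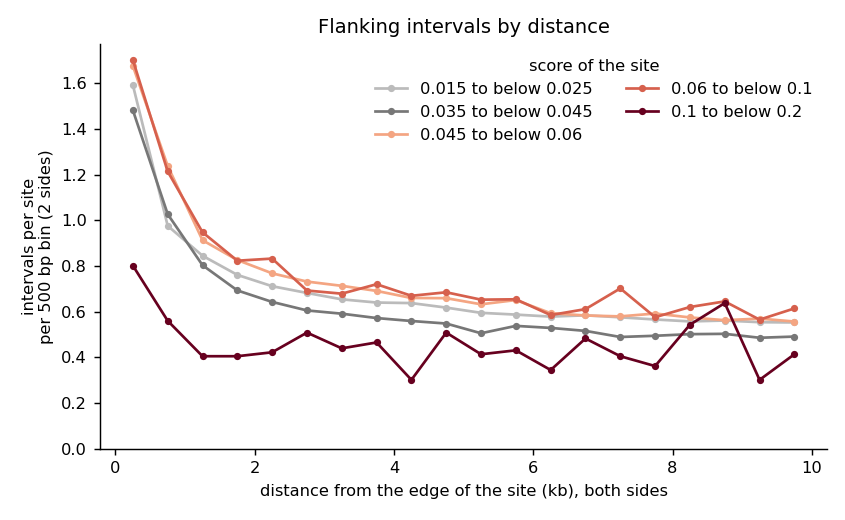
Mean number of other intervals per site in each 500 bp bin, both sides summed (y axis), against the distance in kb from the edge of the site to the interval's midpoint (x axis), with 1 line per score class. Sites of 0.1 or more (darkest line) start at 0.802, below the 1.48 to 1.70 of the other classes drawn, and the lines fall within the first 1 kb.

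The most crowded sites were found on chromosomes 14, 1 and 4. The site on chromosome 14 at 6675596 to 6676662 (1067 bp, score 0.0679) had 47 smaller intervals within 5 kb, 27 of its neighbours to the left and 21 to the right. It was followed by the site on chromosome 1 at 90172550 to 90174873 (2324 bp) with 41. The sites on chromosome 14 at 5490634 to 5491389 (756 bp wide), on chromosome 1 at 12734278 to 12735612 (1335 bp wide) and on chromosome 4 at 57703576 to 57704274 (699 bp wide) had 40 each. These 5 sites scored between 0.0486 and 0.0712. Of all sites 77.0% scored below 0.06 and 19.5% from 0.06 to below 0.1, so a score below 0.1 does not set the crowded sites apart.

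At the other extreme, the site farthest from any other interval was on chromosome 6 at 44742915 to 44743403 (489 bp, score 0.0608), with 233 kb to its nearest neighbour. The next were on chromosome 1 at 48938162 to 48938667 (506 bp, score 0.1091, 172 kb), on chromosome 4 at 31108058 to 31108313 (256 bp, score 0.0555, 169 kb), and on chromosome 14 at 110075254 to 110075741 (488 bp, score 0.1757, 164 kb) and 114600353 to 114600731 (379 bp, score 0.0489, 132 kb). All 5 were narrower than the median site. The same was true of isolation among the narrowest sites. Of the 5 narrowest, from 244 to 259 bp, 4 had no interval within 5 kb, namely those on chromosome 11 at 64496098 to 64496341, on chromosome 7 at 142199361 to 142199609, on chromosome 3 at 53989856 to 53990114, and the site at 31108058 on chromosome 4 named above. The remaining one, on chromosome 17 at 23868524 to 23868775, had 1.

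The 5 widest sites were 2864 to 2978 bp wide, scored between 0.0597 and 0.0747 and each had neighbours within 97 bp. They were on chromosome 13 at 23502512 to 23505489, with 11 smaller intervals within 5 kb, on chromosome 8 at 19859169 to 19862144 with 4 and at 71999798 to 72002713 with 10, on chromosome 3 at 95455801 to 95458691 with 36, and on chromosome 17 at 15126437 to 15129300 with 22.

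Density differed between autosomes by a factor of 3.15. The 19 autosomes carried 1.37 ± 0.470 sites per Mb (mean ± SD, n = 19 autosomes), and the median was 1.24. Chromosome 8 was the densest with 305 sites, or 2.37 per Mb, 1.90 times the autosomal median (95% Poisson interval 1.70 to 2.13, counting error only). Chromosome 11, known as a gene-rich chromosome, followed with 267 sites and 1.81 times the median (1.60 to 2.04), and chromosome 17 had 179 sites and 1.56 times (1.34 to 1.81). The sparsest were chromosome 12 with 89 sites and 0.606 times the median (0.486 to 0.745), chromosome 18 with 68 sites and 0.623 times (0.484 to 0.790), and chromosome 16 with 79 sites and 0.666 times (0.528 to 0.831). The Poisson intervals of these 3 overlapped, as did those of chromosomes 8, 11 and 17, so the order within each group is not settled by the counts. Membership is not settled either. The interval of chromosome 7 (1.30 to 1.65) overlapped those of chromosomes 11 and 17. Those of chromosomes 4 (1.18 to 1.51), 19 (0.986 to 1.51) and 1 (1.14 to 1.43) also overlapped that of chromosome 17. The intervals of chromosomes 3 (0.633 to 0.882), 15 (0.694 to 1.03) and 14 (0.7447 to 1.05) overlapped those of the 3 sparsest. That of chromosome 6 overlapped those of chromosomes 18 and 16, and that of chromosome 13 overlapped that of chromosome 16. After joining within 500 bp chromosome 7 was at 1.52 times the median and chromosome 17 at 1.33 times. Chromosome 8 was not the densest under 5 of the 7 alternatives tried. Chromosome 11 was ahead at a lower score limit of 0.040 (1.68 against 1.64 times the median), after joining within 500 bp (1.82 against 1.64 times), and without sites near chromosome ends or gaps of 1 Mb or more (1.752 against 1.705 times).

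The 65373 autosomal intervals of the same width range with a lower score followed a similar order over a smaller range, a factor of 2.23 (Pearson's r = 0.92 over 19 autosomes that share 1 list, given as a description). Sites made up 4.86% of the combined number of sites and lower-scoring intervals. The share was 6.60% (5.90 to 7.35%) on chromosome 8 and 6.11% (5.43 to 6.85%) on chromosome 7, and on chromosome 11 it was 5.21% (4.62 to 5.86%). Chromosome 18 had the lowest share, 3.80% (2.96 to 4.79%). Chromosome 7 was thus at 1.47 times the autosomal median in sites and at 1.05 times in lower-scoring intervals.

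The excess on chromosome 8 came in part from a few windows. Without the 10 windows of 1 Mb that held the most sites, chosen after the values were seen, chromosome 8 was at 1.51 times the autosomal median, chromosome 11 at 1.67 times, chromosome 17 at 1.55 times, chromosome 7 at 1.37 times and chromosome 4 at 1.01 times, against 1.34 times for chromosome 4 with them. Without the 5% of windows richest in intervals of any score, chromosome 17 was the densest at 1.501 times, followed by chromosome 11 at 1.43, chromosome 19 at 1.40 and chromosome 8 at 1.37 times.

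**Figure D4:**
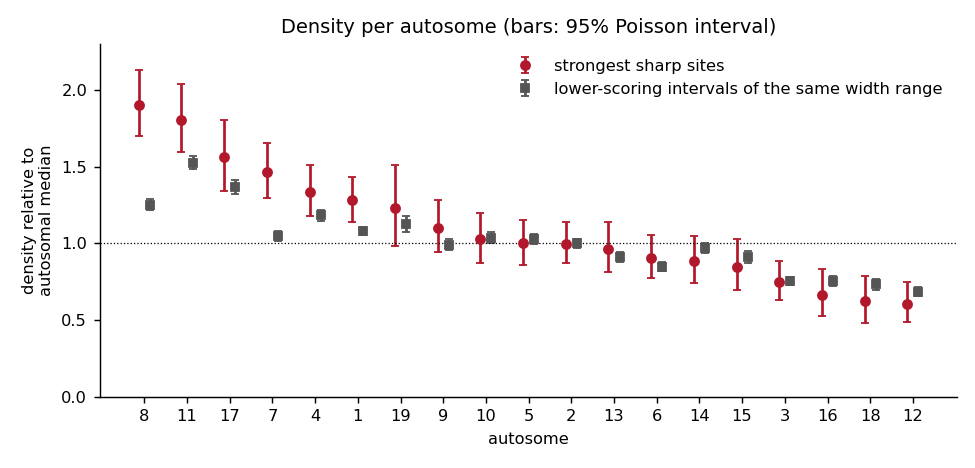
Sites per Mb of span relative to the autosomal median (y axis) for each autosome, ordered by that value (x axis), with 95% Poisson intervals as bars. Red circles are the strongest sharp sites and grey squares the 65373 lower-scoring intervals of the same width range, and chromosome 8 stands at 1.90 against 1.25.

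The sites were chosen on width and score, and 77.0% scored below 0.06, so similar median scores between autosomes follow in part from the rule. The median width of the sites ran from 528 bp on chromosome 9 to 662.5 bp on chromosome 4, and the median score from 0.0497 on chromosome 12 to 0.0532 on chromosome 6. The number of smaller neighbours varied more, from a median of 4 on chromosome 12 to 9 on chromosome 14. Sites of 0.1 or more were found on each autosome, with 14 of 141 sites (9.93%) on chromosome 13 and 2 of 273 (0.733%) on chromosome 7. Along the span of the autosomes, 25.7% (24.3 to 27.3%) of the sites and 26.3% (25.9 to 26.6%) of the lower-scoring intervals fell in the last 20%, on the telomeric side. These shares are pooled, and not every autosome exceeded 20% there. For the sites 11 of 19 autosomes did, and for the lower-scoring intervals 13 did. The third of 10 equal parts held 5.78% of the sites and 7.44% of the lower-scoring intervals, and the eighth held 8.59% and 10.2%. Within 500 kb of a chromosome's outermost intervals or of a gap of 1 Mb or more in the list were 3.77% (3.15 to 4.47%) of the sites and 1.66% (1.56 to 1.76%) of the lower-scoring intervals.

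Sites were unevenly spaced. The median distance between the midpoints of neighbouring sites was 167 kb, with quartiles of 38.6 and 686 kb, whereas 3341 sites on 2415 Mb give a mean spacing of 723 kb. The median was 0.23 times the mean overall and between 0.154 and 0.320 times on the single autosomes. Chromosome 8 had the shortest median distance, 64.8 kb, and chromosome 12 the longest, 425 kb. The median was 291 kb when the sites in the 5% of windows richest in intervals of any score were left out. Distances then ran across the windows left out, and no mean spacing of the remaining sites is given here. The value therefore does not show how even the spacing was elsewhere. For lower-scoring intervals the ratio of median to mean was 0.275 for scores from 0.035 to below 0.045 and 0.308 from 0.025 to below 0.035, both nearer to 1 than for the sites, and 0.229 from 0.015 to below 0.025.

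Close pairs were a minority. Of 3322 neighbouring pairs, 229 (6.89%) lay within 5 kb by midpoint, 353 (10.6%) within 10 kb, 969 (29.2%) within 50 kb and 1354 (40.8%) within 100 kb. The closest midpoints were 528.5 bp apart. In contrast, 238 sites (7.12%) had no other site within 1 Mb on either side. These remote sites had a median width of 519 bp, a median score of 0.0513 and a median of 3 smaller neighbours, against 7 over all sites.

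Sites per window of 1 Mb were highly uneven. Of 2425 windows, 1237 (51.0%) held no site, 782 (32.2%) held 1 or 2 and 45 (1.86%) held 10 or more. The mean was 1.38 sites per window and the variance was 4.91 times the mean. For the more numerous lower-scoring intervals it was 34.7 times, at a mean of 27.0 per window. At equal relative unevenness this ratio grows with the mean count, so the values do not show which group was more uneven. The densest 10% of windows, 243 in number, held 1770 sites (53.0%, 51.3 to 54.7%). The lower-scoring intervals of the same width range had 34.8% in their densest 10% of windows, but with a mean of 27.0 per window they leave fewer windows empty. Among the windows without a site 1179 (95.3%) did hold such lower-scoring intervals. Over all windows the counts of sites and of lower-scoring intervals rose together (Spearman's rho = 0.69, Pearson's r = 0.76 over 2425 windows of 1 list, given as a description).

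**Figure D5:**
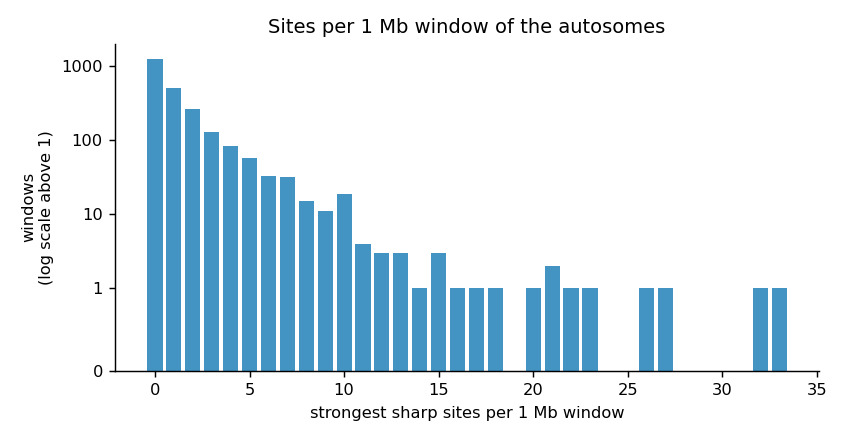
Number of 1 Mb windows (y axis, log scale above 1) by the number of strongest sharp sites in the window (x axis), over 2425 autosomal windows. The bar at 0 stands for 1237 windows, and the right tail ends with windows of 26, 27, 32 and 33 sites.

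The richest windows were of differing kinds. On chromosome 4 the windows from 146000001 to 147000000 and from 145000001 to 146000000 held 33 and 32 sites, which were 7.66% and 7.11% of the intervals of the width range there. The window from 47000001 to 48000000 on chromosome 6 held 27 sites, 39.1% of its intervals of that width range, and the window from 19000001 to 20000000 on chromosome 8 held 26 sites, or 56.5%. In these 4 windows sites were wide, with medians of 1168 to 1817 bp. The fifth window, from 69000001 to 70000000 on chromosome 11, held 23 sites with a median width of 588 bp, close to the median of all sites, and 16.9% of its intervals of the width range were sites. The next window, from 72000001 to 73000000 on chromosome 8, held 22. The 5 richest windows together held 141 sites (4.22%) but 28 of the 75 sites of at least 2000 bp (37.3%). The median width was 1202 bp in those windows and 567 bp elsewhere.

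A chain of sites was defined as consecutive sites with each edge within 5 kb of the next. Most sites, 2886 of 3341, formed no chain, and the other 455 (13.6%) fell into 193 chains. Pairs made up 163 of the chains, 17 had 3 sites and 10 had at least 5. The 66 sites in chains of at least 5 had a median width of 1556 bp, against 557.5 bp for sites outside chains. Sequence in the chains was not analysed here, and whether repeated sequence contributes to them was not tested.

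The longest chain lay on chromosome 6 at 47686981 to 47728768, with 15 sites in 41.8 kb that covered 58.9% of it. Their widths ran from 838 to 2473 bp and their scores from 0.0560 to 0.0936, and each had between 4 and 12 smaller intervals within 5 kb. A second chain on the same chromosome, at 47612346 to 47625231, was the most regular. Its 6 sites were 2623, 1522, 2589, 1409, 2637 and 1558 bp wide in order of position, so wide and narrow sites alternated. The distances between neighbouring midpoints were 2160.5, 2148.5, 2097, 2289 and 2100.5 bp, and sites covered 95.8% of the 12.9 kb. The scores were 0.0692, 0.0797, 0.0705, 0.0540, 0.0824 and 0.0764. The first 5 sites of the longest chain alternated in the same way, with widths of 1455, 2200, 1350, 2473 and 1479 bp and midpoint distances of 2066.5, 2203, 2264.5 and 2012 bp. Its later sites did not keep this pattern throughout. Steps of 6403.5 and 6753.5 bp followed, to neighbouring sites of 2354 and 2221 bp, and the chain ended with widths of 1297, 1194 and 838 bp.

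Chromosome 8 held a pair of chains of 7 sites whose later parts resembled each other. The first, at 19859169 to 19886132, ended with sites of 2845, 1202 and 2275 bp, with midpoints 6556.5 and 1895.5 bp apart. The second, at 19989522 to 20013384, ended with sites of 2743, 1189 and 2226 bp, with midpoints 6696 and 1809.5 bp apart. In each chain the step before these sites was also long, 6480.5 and 6453 bp. The last site was the highest-scoring of its chain, at 0.101 and 0.0971. Smaller intervals were few here, at most 4 within 5 kb of any of the 14 sites, although each had between 4 and 6 other intervals in that distance.

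The next longest chain, of 6 sites, was on chromosome 4 at 145583730 to 145596095, where sites of 1003 to 2072 bp covered 78.1% of 12.4 kb. Chains of 5 sites were found on chromosome 4 at 146774971 to 146793036 and 146815701 to 146827568, on chromosome 8 at 19741128 to 19753378, on chromosome 2 at 27350842 to 27361566 and on chromosome 5 at 15176727 to 15187402. The chain on chromosome 2 reached the highest score of these, 0.149, and sites covered 68.5% of it. Stretches in which at least 10 consecutive bins of 20 kb were each at least 20% covered by intervals numbered 7 on the autosomes and held 97 sites (2.90%). In the stretch on chromosome 8 at 19840001 to 20040000, 17 of 64 intervals (26.6%) were sites, and in that on chromosome 17 at 30580001 to 31060000, 15 of 1334 (1.12%) were.

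Long stretches had no site at all. The longest ran on chromosome 16 from 59247891 to 84769320, 25.5 Mb, and contained 758 intervals of the list, 29.7 per Mb against 143 per Mb over the autosomes. It was followed by chromosome 6 from 5446916 to 22443938 (17.0 Mb, 36.4 intervals per Mb), chromosome 5 from 39144388 to 53946686 (14.8 Mb, 51.7 per Mb), chromosome 15 from 11329909 to 25261675 (13.9 Mb, 33.2 per Mb) and chromosome 13 from 81021342 to 94710976 (13.7 Mb, 54.2 per Mb). None of these 5 had a stretch of 1 Mb without any interval, the longest such gap being 0.859 Mb on chromosome 15. Lower-scoring intervals of the same width range were present in each, between 81 and 141 of them. In all, 81 stretches of at least 5 Mb without a site took up 25.7% of the autosomal span.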

How the data were processed

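The samples were 1 input, 1 DMSO and 1 ICRF-193 library, grouped by title, and 1 list of intervals of the whole series was analysed. Reads were aligned with Bowtie to mm9, per the submitters' processing notes, and F-Seq is named by the list. Not given in the sources used here were its settings, the read filters and the samples that entered. Each score is the value the authors deposited for its interval, on a scale that is not given. The sites were chosen on score and width. The rule and the classes compared were chosen with earlier results of these data known.

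Starts were counted from 1. Density was sites per Mb between the first and last interval of an autosome, with Poisson intervals. Shares have exact Clopper-Pearson intervals at 95%. Windows and spacing used midpoints. Regions were named by rank: the 5 highest-scoring, widest, narrowest, most crowded and most remote sites, the 5 richest windows, longest chains and longest stretches without a site, the 3 densest and sparsest autosomes, and intervals at the limits. Chains tied at 5 sites were all named. Alternatives varied the limits, joining, window and distance. Values were computed with scipy 1.17.1, numpy 2.4.6 and pandas 2.3.3 under Python 3.11.15. Counting of neighbours and density was tested on simulated intervals. Genes and sequences of the sites were not analysed here.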

Additional observations from a re-analysis of the deposited data

How the results depend on the processing

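Of 97 alternative values for 11 results, 68 stayed close to the value reported and 29 moved. Leaving out the minimum width could change no value, because that limit removed no interval, and its values are counted among the 68. A change of direction was defined only for the densities of the 3 densest and 3 sparsest autosomes, where 0 occurred. The other results could not change direction by their definition. Close means within 1.5 times for the number of sites and the median number of smaller intervals, and within the 95% counting interval for spacing, shares and densities. With a lower score limit of 0.040 there were 5815 sites, spaced at a median of 90.7 kb, with 47.6% in the densest 10% of windows and chromosome 8 at 1.64 times the autosomal median. At 0.050 the values were 1965 sites, 266 kb and 59.3%, and chromosome 12 was at 0.470 times. Joining within 500 bp gave 235 kb, 50.3%, 2 smaller intervals within 5 kb, and 1.64 times for chromosome 8 and 1.33 times for chromosome 17. Without the 5% densest windows the values were 291 kb and 49.4%, with chromosome 8 at 1.37 and chromosome 11 at 1.43 times. Without the 10 windows with the most sites, an alternative chosen after seeing the data, they were 202 kb and 50.5%, with chromosome 8 at 1.51 times. Windows of 500 kb gave 60.5% and windows of 5 Mb 38.8%. Distances of 2 and 10 kb gave 4 and 11 smaller intervals. Except for alternatives that change by construction, the cause was not tested. No paired analysis was possible because intervals are not tied to samples and no test was made. For the same reason leaving out a replicate was not possible. Read depth is unknown, so neighbours too weak to be listed are not counted.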

Other observations

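Outside the autosomes, 89 intervals on chromosome X and 24 on chromosome Y met the same limits of score and width. Regions formed by joining intervals within 500 bp and holding at least 1 strongest sharp site numbered 3182. They had a median of 3 intervals and a median width of 1006.5 bp, and 997 of them (31.3%) were a site without any attached interval. The 155449 joined regions without a site had a median of 1 interval and a median width of 161 bp. Only 110 of the joined regions with a site (3.46%) held at least 2 sites. The widest extended over 94486 bp.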
